A study of Mus musculus with 4 samples.

Results

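The receptors for dopamine, serotonin, histamine, noradrenaline and adrenaline, and acetylcholine are described here in cortical isolates of mice with and without astroglial *Ezh2*. They were taken as the protein-coding genes of the deposited count table whose symbols name a dopamine, serotonin, histamine, muscarinic, nicotinic or adrenergic receptor, which gave 51 of 29224 genes. There were 15 nicotinic, 14 serotonin, 9 adrenergic, 5 muscarinic, 5 dopamine and 3 histamine receptor genes. *Chrnd* and *Hrh4*, whose symbols the rule would also take, had no protein-coding row in that count table. It holds only genes with at least 1 count in some library.

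RNA was sequenced at postnatal day 5 (P5) from 2 libraries of Ezh2 f/f mice (f/f) and 2 of Ezh2 cKO mice (cKO). Ezh2 f/f mice carry *Ezh2* alleles flanked by loxP sites and served as controls. Ezh2 cKO mice carry the same floxed alleles together with Aldh1l1-icre, a Cre transgene under the promoter of the astrocyte gene *Aldh1l1*, so that recombination is restricted to cells that have used that promoter. The series describes the RNA as that of astrocytes captured from cerebral cortex with magnetic beads against GLAST (ACSA-1), an astrocyte surface glutamate transporter, while the sample labels name only cerebral cortex. Neither says whether a library came from 1 animal or from pooled animals, so p-values measure the spread between these libraries, which may be technical.

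The receptors fall into a pair of structural classes. Muscarinic, dopamine, adrenergic and histamine receptors and most serotonin receptors span the membrane with helices that couple to G proteins. Those coupled to Gq raise phospholipase C activity and intracellular calcium, those coupled to Gs raise cyclic AMP, and those coupled to Gi/o lower it. Nicotinic acetylcholine receptors and the 5-HT3 receptor are instead pentameric cation channels that open within milliseconds of transmitter binding. In the cortex the transmitters reach these receptors mainly from subcortical nuclei, and both neurons and astrocytes carry some of them. EZH2 is the catalytic subunit of Polycomb repressive complex 2, which methylates histone H3 at lysine 27 and is often found at promoters rich in CpG dinucleotides.

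RefSeq promoter sequences on GRCm38.p6 were matched for 40 of the 51 genes, in 49 windows, and the 250 bases before each start site were read. The median window of the receptor genes held 10 CpG dinucleotides, against 6 over all 32851 promoters, and the receptor windows ranged from 1 to 42. At least 15 CpG were present in 34.7% of the receptor windows and in 27.3% of all promoters. The 26 windows of genes that were higher in Ezh2 cKO had a median of 11 CpG, and the 2 windows of lower genes also had 11. The 12 windows of tested genes that were not called had a median of 15.5, and the 9 windows of untested genes a median of 2. Genes with several start sites enter more than once. The upstream bases of 4 genes are shown because these genes had the largest called changes in each direction among those with a single matched start site. CpG dinucleotides are in capitals, and bases in an annotated exon of the gene were left out. *Chrm4* and *Htr5a* were higher in Ezh2 cKO, with 26 and 13 CpG in the bases shown. *Chrnb2* and *Drd4* were lower, with 10 CpG each. The *Chrm4* bases are chr2:91921939-91922188 on the + strand, the *Htr5a* bases chr5:27841697-27841946 on the + strand, the *Chrnb2* bases chr3:89764633-89764882 on the - strand and the *Drd4* bases chr7:141291768-141292005 on the + strand, each written 5′ to 3′ along the gene.
Chrm4: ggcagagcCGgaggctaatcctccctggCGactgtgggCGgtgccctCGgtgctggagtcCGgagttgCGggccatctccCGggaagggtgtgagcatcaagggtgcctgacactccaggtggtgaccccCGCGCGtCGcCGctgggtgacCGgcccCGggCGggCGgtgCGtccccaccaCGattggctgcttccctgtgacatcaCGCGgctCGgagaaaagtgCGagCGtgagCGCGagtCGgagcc
Htr5a: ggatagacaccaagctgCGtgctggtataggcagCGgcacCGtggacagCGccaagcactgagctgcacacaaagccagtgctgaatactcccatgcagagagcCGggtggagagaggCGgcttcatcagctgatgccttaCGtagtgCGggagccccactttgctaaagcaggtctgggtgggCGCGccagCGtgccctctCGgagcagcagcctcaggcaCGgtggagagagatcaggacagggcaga
Chrnb2: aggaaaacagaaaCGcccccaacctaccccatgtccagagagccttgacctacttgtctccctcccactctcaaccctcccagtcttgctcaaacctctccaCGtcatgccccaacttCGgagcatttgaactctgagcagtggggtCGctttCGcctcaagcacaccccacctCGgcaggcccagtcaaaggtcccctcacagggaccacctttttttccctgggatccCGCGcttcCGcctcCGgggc
Drd4: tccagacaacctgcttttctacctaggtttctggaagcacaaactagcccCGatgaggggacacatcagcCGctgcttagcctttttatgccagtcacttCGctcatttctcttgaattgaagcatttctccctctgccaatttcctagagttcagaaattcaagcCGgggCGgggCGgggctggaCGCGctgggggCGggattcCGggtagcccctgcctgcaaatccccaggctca

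The letters GGGCGG, the GC box bound by Sp1-type factors, were found on either strand in 25 of the 49 receptor windows and in 32.7% of all promoters. They were present upstream of *Chrm4* and *Drd4*, which moved in opposite directions. TATAAA was found in 2 of the 49 windows, those of *Adra2a* and *Chrnb1*, and in 12.4% of all promoters. GGACAGC, the shorter arm of the element bound by the neuronal gene repressor REST, was found in the windows of *Drd2*, *Hrh3*, *Htr2a* and *Htr5a* and in 5.28% of all promoters. These matches describe letters only.

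The libraries held 16273308 to 17522152 counts, and a count of 3 in a library, the limit that a count of 0 allows, came to 0.170 to 0.191 CPM (counts scaled to the TMM-corrected library size). *Ezh2* itself was counted 434 and 327 times in f/f and 211 and 164 times in cKO. The cKO libraries were both below the f/f libraries, with a log2 fold change of -1.11 ± 0.16 (standard error, SE; edgeR quasi-likelihood test, adjusted p = 3.26e-05). These counts cover the whole gene, including exons outside the floxed segment.

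Marker genes of other cells were abundant in all 4 isolates. On the FPKM scale, which corrects for gene length as well as library size, 15 pan-neuronal markers summed to 3392 and 3658 in f/f and 3581 and 3620 in cKO, and 15 astrocyte markers to 139 and 150 in f/f and 698 and 629 in cKO. The neuronal sum was above the astrocyte sum in every library, and the samples are called isolates here for that reason. Beside the marker calls that follow, 34.7% of all 16793 tested genes were called higher and 33.6% lower. The shares of the excitatory markers (30% and 40%) and the interneuron markers (33.3% and 41.7%) lay near these. Of the astrocyte markers 13 were higher in Ezh2 cKO and none lower, and *Aldh1l1* and *Sox9*, at log2 fold changes of -0.15 and -0.06, did not pass the threshold. Of the neuronal markers 10 were higher and 3 lower, the latter being *Dcx*, *Elavl3* and *Tubb3*. Of 10 excitatory neuron markers 3 were higher and 4 lower (summed level 1394 to 1571 CPM in f/f, 5627 to 6038 in cKO). Of 12 interneuron markers 4 were higher and 5 lower. Their sum was 713 to 791 CPM in f/f and 681 to 687 CPM in cKO. On the FPKM scale that sum was 432 to 501 in f/f and 542 to 554 in cKO, so its direction depended on the unit. All 8 oligodendrocyte precursor markers (194 to 199 against 575 to 646 CPM), 7 of 8 oligodendrocyte markers (83.1 to 95.8 against 744 to 869 CPM) and all 10 microglial markers (109 to 111 against 288 to 340 CPM) were higher, and the remaining oligodendrocyte marker, *Opalin*, was at 0 in both f/f libraries. Endothelial markers gave 3 higher and 1 lower of 10 (270 to 280 against 262 to 306 CPM), and mural cell markers 5 higher and 1 lower of 10 (266 to 283 against 391 to 447 CPM). No marker other than *Opalin* was at 0 in every library of a group. All receptor values below come from this mixture, in which fewer cells of a type and less RNA per cell cannot be told apart, and the part of these marker shifts in the receptor results was not tested.

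More receptor genes were higher than lower in Ezh2 cKO in the quasi-likelihood test, and all those called higher there encode G protein-coupled receptors. Of the 51 genes, 23 were higher, 3 were lower (*Drd4*, *Htr3a* and *Chrnb2*), 14 passed neither way and 11 had too few counts to be tested. The share of all 16793 tested genes called was 34.7% for higher and 33.6% for lower, against 45.1% and 5.88% of the 51 receptor genes. The receptor shares count the 11 untested genes in their base, and the 23 and 3 called genes come from the 40 tested. With at least a 2-fold change, 16 of the 51 were higher and 2 lower, beside 19.0% and 14.0% of all tested genes. The median log2 fold change was 0.72 over the 40 tested receptor genes and 0.02 over all tested genes. Among the called genes, *Htr1f* (1 and 3 counts), *Htr4* (4 and 4) and *Adrb3* (5 and 4) were low in f/f. *Drd4* (2 and 8) was low in cKO. The counts of these genes in the other group let them be tested, and they remain in the totals and the median. Leaving out a library in turn left 17 to 23 genes higher and 2 or 3 lower, the fewest higher without Ezh2 cKO replicate 2. Each such fit leaves a single library in a group, whose spread is assumed to be like that of the other pair.

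**Figure D1:**
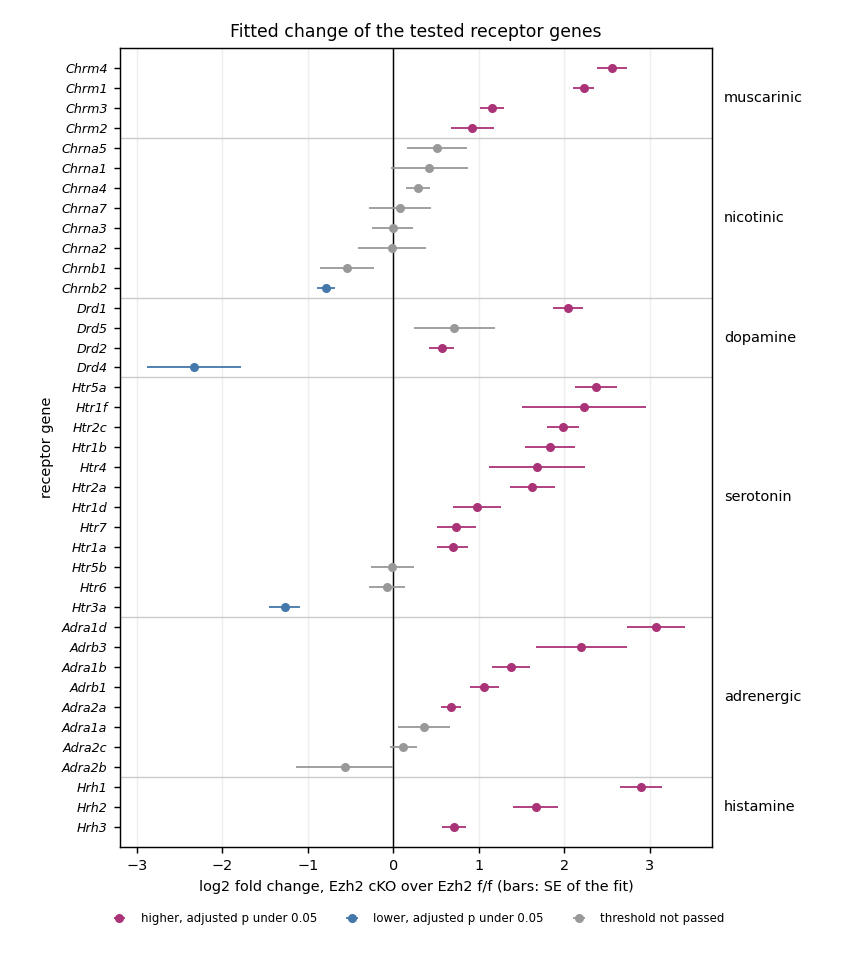
Fitted log2 fold change (x axis, Ezh2 cKO over Ezh2 f/f) of 39 tested receptor genes (y axis, grouped by family), with bars for the SE of the fit and colours for the call at an adjusted p under 0.05. Points to the right of 0 are higher in Ezh2 cKO; the 3 genes called lower, *Chrnb2*, *Drd4* and *Htr3a*, are each the only one of their family called lower, and no nicotinic gene is called higher.

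The calls are given next by receptor class, without a test between the classes. Of the 34 genes for G protein-coupled receptors, 23 were higher, 1, *Drd4*, was lower and 3 were not tested. Of the 17 genes for channel subunits, none was higher, 2, *Chrnb2* and *Htr3a*, were lower and 8 were not tested. The count of higher channel subunits was also 0 at an unadjusted p under 0.05 with edgeR and DESeq2. So were the counts of lower adrenergic receptors and lower astrocyte markers. The limma counts were 0 too, but limma tested only genes with an FPKM of 1 or more in 2 libraries. Of the channel subunits these were *Chrna4*, *Chrnb2* and *Htr3a*, so only *Chrna4*, not called lower, could have been higher. *Adra2b*, the only adrenergic gene with a negative log2 fold change, was not tested by limma. The limma counts for both receptor sets were thus nearly fixed beforehand and carry little weight. With a library left out *Chrna4* or *Chrna7* passed, and so did *Chrna4* with the replicate number as a block, as given with their values. By coupling, 7 of 10 Gq-coupled, 6 of 9 Gs-coupled and 10 of 14 Gi/o-coupled receptor genes were higher, and *Htr5b* was given no coupling. The largest summed rise was in the Gq-coupled genes, whose summed FPKM was 11.5 and 11.9 in f/f and 45.0 and 49.7 in cKO. The Gs-coupled sum was 8.05 and 9.34 FPKM in f/f and 17.8 and 19.5 in cKO, and the Gi/o-coupled sum was 25.7 and 23.8 against 49.7 and 54.4. The channel subunit sum was 33.5 and 38.7 FPKM in f/f and 30.0 and 29.5 in cKO. Channel subunits thus made up more receptor RNA than Gq-coupled receptors in the f/f libraries and less in the cKO libraries; these sums are given without a test.

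**Figure D2:**
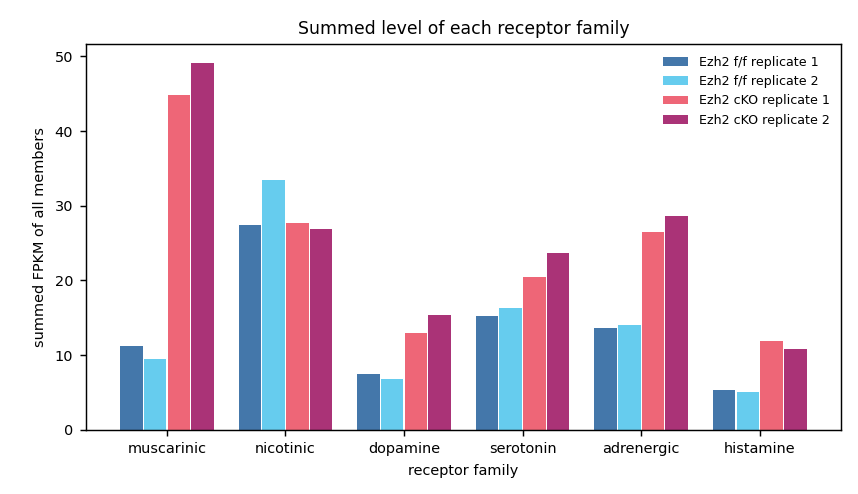
Summed FPKM of all members of each receptor family (y axis, linear from 0) in each of the 4 libraries (bars, coloured by library), by family on the x axis. The muscarinic sum moves from 11.2 and 9.53 in Ezh2 f/f to 44.9 and 49.1 in cKO, while the nicotinic FPKM sums of the groups overlap. In CPM, not drawn, the nicotinic sums do not overlap (187 and 230 in Ezh2 f/f, 166 and 156 in cKO).

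Counted reads reached more than 3 in each library of the group for 41 of the 51 genes in Ezh2 f/f and for 43 in cKO, and for 39 in both. In Ezh2 cKO alone this held for *Chrm5*, *Chrnb3*, *Htr1f* and *Htr2b*, and in Ezh2 f/f alone for *Drd4* and *Chrnb4*. *Chrm5*, the fifth muscarinic receptor, had 5 and 3 counts in f/f and 4 and 6 in cKO. *Chrnb4*, a partner of α3 in ganglionic receptors, had 8 and 11 counts in f/f and 2 and 4 in cKO. The genes under this limit in both groups were *Drd3*, *Htr3b*, *Chrna6*, *Chrna9*, *Chrna10* and *Chrng*. They include the α9 and α10 subunits of cochlear hair cells and the fetal muscle subunit γ, and none had more than 7 counts in any library. At this depth their RNA could not be compared between groups, which does not show that it is absent.

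The muscarinic acetylcholine receptors showed the largest summed change of the 6 families. Of 5 genes, 4 were higher in Ezh2 cKO and *Chrm5* was too low to test. The summed FPKM was 11.2 and 9.53 in f/f and 44.9 and 49.1 in cKO. *Chrm1*, the Gq-coupled M1 receptor of cortical and hippocampal pyramidal neurons, was counted 693 and 483 times in f/f and 2891 and 2946 times in cKO. Its libraries lay far apart by group, and the log2 fold change was 2.23 ± 0.12 (SE; adjusted p = 2.45e-09). *Chrm4*, the Gi/o-coupled M4 receptor, was counted 62 and 51 times in f/f and 341 and 367 times in cKO. Its groups did not overlap either, with a log2 fold change of 2.55 ± 0.18 (adjusted p = 2.10e-08). *Chrm3*, Gq-coupled and best known from glands and smooth muscle, had 217 and 235 counts in f/f and 494 and 583 in cKO. Both cKO libraries were above the f/f libraries, by a smaller log2 fold change of 1.16 ± 0.14 (adjusted p = 6.62e-06). *Chrm2*, a Gi/o-coupled receptor often found on cholinergic endings, had 47 and 35 counts in f/f and 83 in each cKO library (log2 fold change 0.93 ± 0.25, adjusted p = 0.00457). The FPKM of *Chrm1* over that of *Chrm3* was 3.08 and 1.98 in f/f and 5.64 and 4.87 in cKO. By mean FPKM, *Chrm1* was the fourth of the 51 genes in f/f, at 5.34 ± 1.08 (SD, n = 2), and the highest in cKO, at 26.5 ± 1.07 (SD, n = 2). *Chrm4* moved from the 11th place, 2.32 ± 0.20 FPKM, to the second, 14.5 ± 1.14 FPKM.

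A single nicotinic receptor subunit gene was called. Of 15 genes none was higher, 1 was lower, 7 passed neither way and 7 had too few counts to be tested. *Chrnb2*, the β2 subunit that pairs with α4 in the main high-affinity nicotinic receptor of the brain, was counted 2202 and 2386 times in f/f and 1492 and 1351 times in cKO. Both cKO libraries were below both f/f libraries, with a log2 fold change of -0.79 ± 0.10 (adjusted p = 1.15e-05). *Chrna4*, the α4 partner, was counted 746 and 1006 times in f/f and 1201 and 1099 times in cKO. After scaling, its groups overlapped, at 43.7 and 64.0 CPM in f/f and 68.1 and 63.4 CPM in cKO, and its log2 fold change of 0.29 ± 0.14 missed the threshold (edgeR adjusted p = 0.0765). Its log2 fold change passed at 0.58 without Ezh2 f/f replicate 2 (adjusted p = 5.91e-05) and at 0.31 with all 4 libraries and the replicate number as a block (adjusted p = 0.0163). The FPKM of *Chrna4* over that of *Chrnb2* was 0.565 and 0.704 in f/f and 1.34 and 1.36 in cKO, so their order was reversed on this scale. In CPM, which does not correct for gene length, *Chrnb2* stayed above *Chrna4* in both cKO libraries (84.6 and 78.0 against 68.1 and 63.4). The subunits together made up 85.4% and 89.0% of the nicotinic FPKM in f/f and 87.1% and 84.6% in cKO. *Chrnb2* carried 54.6% and 52.2% of it in f/f and 37.2% and 35.9% in cKO.

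**Figure D3:**
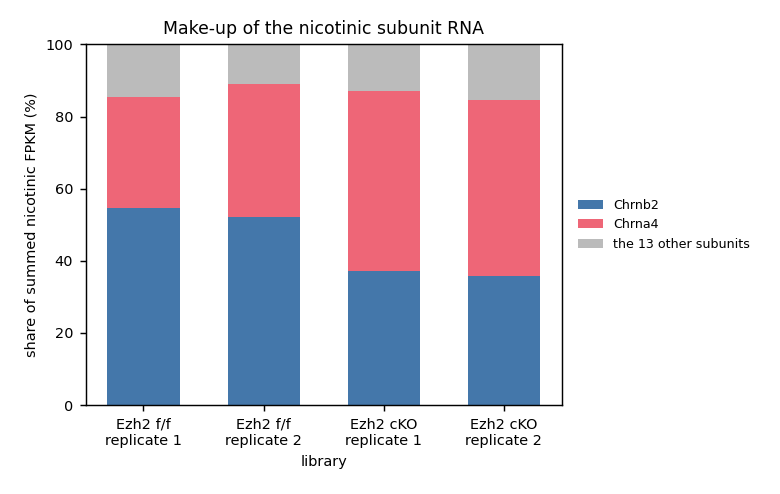
Share of the summed nicotinic FPKM (y axis, percent) held by *Chrnb2*, *Chrna4* and the 13 other subunits in each library (x axis). *Chrna4* holds 30.9% and 36.7% in f/f and 49.9% and 48.7% in cKO, and the other subunits stay a minor part throughout.

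The exons of *Chrnb2* overlap those of *Adar*, an RNA-editing enzyme gene on the other strand, over 16.3% of their bases in GENCODE M21. *Adar* was lower in Ezh2 cKO as well (log2 fold change -0.95, adjusted p = 5.00e-07), and whether counting used the strand is not given in the sources used here, so reads of the overlap cannot be told apart. *Chrna7*, which forms the calcium-permeable homomeric receptor, had 69 and 24 counts in f/f and 51 and 53 in cKO. Its f/f libraries lay on either side of the cKO libraries, and the log2 fold change was 0.08 ± 0.36 (adjusted p = 0.85). Without Ezh2 f/f replicate 1 it was 0.96 (adjusted p = 0.0245), and without replicate 2 it was -0.46 (adjusted p = 0.178). The other tested subunits were α1, α2, α3, α5 and β1, whose log2 fold changes lay between -0.54 (*Chrnb1*) and 0.51 (*Chrna5*) and did not pass. *Chrnb3*, a subunit of some midbrain receptors, had 0 and 2 counts in f/f and 7 and 5 in cKO, a ratio of 5.63 with an exact 95% interval of 1.25 to 51.8 that covers counting error only. *Chrne*, the adult muscle subunit ε, had 14 and 8 counts in f/f and 5 in each cKO library, too few for the test.

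The dopamine receptors moved in both directions. Of 5 genes, *Drd1* and *Drd2* were higher, *Drd4* was lower, *Drd5* did not pass and *Drd3* was at 0 in 3 of the 4 libraries. *Drd1*, the Gs-coupled D1 receptor, was counted 90 and 64 times in f/f and 328 and 349 times in cKO. Its groups were well separated, with a log2 fold change of 2.05 ± 0.18 (adjusted p = 1.99e-07). *Drd2*, the Gi/o-coupled D2 receptor, was counted 248 and 205 times in f/f and 327 and 387 times in cKO. The change was smaller, a log2 fold change of 0.57 ± 0.15 (adjusted p = 0.00377), and it missed the threshold without Ezh2 cKO replicate 2 (0.43, adjusted p = 0.0694). *Drd4*, a Gi/o-coupled receptor best known from prefrontal cortex and retina, was counted 21 and 27 times in f/f and 2 and 8 times in cKO. Both cKO libraries were below the f/f libraries, and the log2 fold change was -2.33 ± 0.55 (adjusted p = 0.00188). Without Ezh2 cKO replicate 1, the lower of the pair, it was -1.65 (adjusted p = 0.0535), and without Ezh2 cKO replicate 2 it was -3.61 (adjusted p = 0.00711). *Drd5*, the other Gs-coupled dopamine receptor, had 7 and 14 counts in f/f and 17 and 20 in cKO (log2 fold change 0.71 ± 0.47, adjusted p = 0.195). *Drd2* was above *Drd1* in FPKM in every library, but the FPKM of *Drd1* over that of *Drd2* was 0.255 and 0.219 in f/f and 0.704 and 0.633 in cKO.

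**Figure D4:**
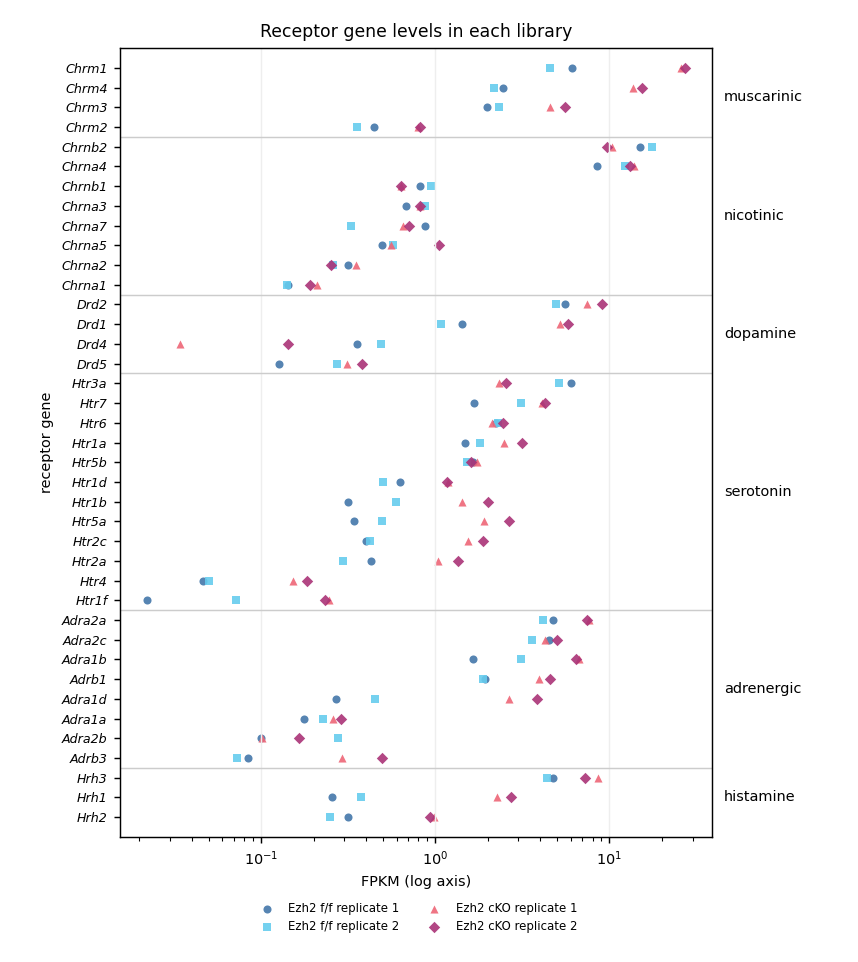
FPKM (x axis, log scale) of 39 tested receptor genes (y axis, grouped by family and ordered by their mean in Ezh2 f/f) in each library (symbols). By group mean, *Chrnb2* and *Chrna4* lie highest in Ezh2 f/f and *Chrm1* and *Chrm4* in Ezh2 cKO. In Ezh2 cKO replicate 1 *Chrna4* (13.8 FPKM) lies just above *Chrm4* (13.7 FPKM). The lowest points are those of *Htr1f* and *Drd4*.

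Serotonin receptor genes of the G protein-coupled class were higher, except *Htr6* and *Htr5b* among the tested genes, while the tested channel subunit gene was lower. Of 14 genes, 9 were higher, 1 was lower, 2 passed neither way and 2 were not tested. *Htr3a*, the subunit without which no 5-HT3 channel forms and a marker of a class of cortical interneurons, was counted 219 and 174 times in f/f and 84 and 89 times in cKO. The cKO libraries lay below the f/f libraries, with a log2 fold change of -1.27 ± 0.18 (adjusted p = 2.87e-05). By mean FPKM it was the third of the 51 genes in f/f, at 5.57 ± 0.61 (SD, n = 2), and the 17th in cKO, at 2.44 ± 0.17 (SD, n = 2). Its partner *Htr3b* had no more than 1 count in any library.

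Among the Gi/o-coupled serotonin receptors, *Htr5a* changed most. It was counted 32 and 43 times in f/f and 178 and 237 times in cKO, a log2 fold change of 2.37 ± 0.24 (adjusted p = 1.03e-06) with no overlap of the groups. *Htr1b*, which sits on axon endings as an autoreceptor and heteroreceptor, was counted 26 and 46 times in f/f and 116 and 159 times in cKO (log2 fold change 1.83 ± 0.29, adjusted p = 7.56e-05). The noncoding gene *D430036J16Rik* covers 18.0% of its exon bases on the other strand and was also higher, although with 70 counts over all 4 libraries. *Htr1f* had 1 and 3 counts in f/f and 11 and 10 in cKO, a ratio of 4.93 with an exact 95% interval of 1.66 to 19.7 for counting error only. Its fitted log2 fold change was 2.23 ± 0.72 (adjusted p = 0.0136), and without Ezh2 f/f replicate 2 it was 3.19 (adjusted p = 0.0238). The call was lost without Ezh2 f/f replicate 1 (1.62, adjusted p = 0.175) or Ezh2 cKO replicate 2 (adjusted p = 0.0845) and by DESeq2's Wald test (adjusted p = 0.131). *Htr1a*, the main somatodendritic receptor of the family, and *Htr1d* were higher by less than 2-fold, at log2 fold changes of 0.70 ± 0.18 and 0.98 ± 0.28. *Htr1a* missed the threshold without Ezh2 cKO replicate 2 (0.53, adjusted p = 0.0648), and *Htr1d* without Ezh2 cKO replicate 1 (0.95, adjusted p = 0.058) and by DESeq2 (adjusted p = 0.0547).

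Both tested genes for Gq-coupled serotonin receptors rose. *Htr2c*, which couples to phospholipase C and whose RNA is edited in neurons, was counted 65 and 64 times in f/f and 250 and 294 times in cKO. The log2 fold change was 1.98 ± 0.19 (adjusted p = 4.12e-07), and replicates within a group were close. *Htr2a*, the receptor of cortical pyramidal cells at which classical psychedelics act, was counted 42 and 27 times in f/f and 101 and 126 times in cKO (log2 fold change 1.63 ± 0.26, adjusted p = 8.22e-05). *Htr2b* was too low for the test, with 1 and 0 counts in f/f and 6 and 4 in cKO, a ratio of 9.38 with an exact 95% interval of 1.33 to 407 for counting error only. Part of its exons, 11.8% of the bases, lies opposite exons of the far more abundant proteasome gene *Psmd1*.

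Of the Gs-coupled serotonin receptors, *Htr4* and *Htr7* were higher and *Htr6* did not pass. *Htr4* had 4 counts in each f/f library and 13 and 15 in cKO, a log2 fold change of 1.69 ± 0.56 (adjusted p = 0.016). That call was lost when any of the 4 libraries was left out (log2 fold change 1.57 to 1.80, adjusted p = 0.0733 to 0.128) and by DESeq2 (1.70, adjusted p = 0.153). *Htr7* was counted 99 and 172 times in f/f and 243 and 242 times in cKO, a log2 fold change of 0.74 ± 0.23 (adjusted p = 0.0111). Its f/f libraries differed more from each other than its cKO libraries, and its log2 fold change was 0.34 (adjusted p = 0.112) without Ezh2 f/f replicate 1, 1.24 (adjusted p = 2.48e-08) without Ezh2 f/f replicate 2, 0.74 (adjusted p = 0.0848) without Ezh2 cKO replicate 1 and 0.73 (adjusted p = 0.0853) without Ezh2 cKO replicate 2. *Htr6*, a receptor of neuronal cilia, was counted 92 and 87 times in f/f and 86 and 95 times in cKO, and its groups overlapped (log2 fold change -0.08 ± 0.21, adjusted p = 0.762). *Htr5b*, the relative of *Htr5a* whose human counterpart is a pseudogene, had 56 and 48 counts in f/f and 58 and 52 in cKO, again with overlapping groups (log2 fold change -0.01 ± 0.25, adjusted p = 0.975). *Htr5a* was below *Htr5b* in FPKM in both f/f libraries (0.340 and 0.492 against 1.65 and 1.52) and above it in both cKO libraries (1.91 and 2.64 against 1.73 and 1.61).

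Of the 9 adrenergic receptor genes, 5 were higher in Ezh2 cKO, none was lower and 4 passed neither way. *Adra1d*, a Gq-coupled α1 receptor, was counted 9 and 14 times in f/f and 87 and 122 times in cKO. This was the largest fitted rise among the 51 genes, a log2 fold change of 3.08 ± 0.34 (adjusted p = 2.13e-06). A noncoding gene with 24 counts in all, *Gm14285*, lies opposite 7.74% of its exon bases and was higher too. *Adra1b* was counted 98 and 172 times in f/f and 393 and 361 times in cKO, and the groups stayed apart although the f/f libraries differed (log2 fold change 1.38 ± 0.22, adjusted p = 7.51e-05). *Adra1a*, an α1 receptor linked to calcium signals evoked by noradrenaline, was low at 27 and 32 counts in f/f and 39 and 42 in cKO and did not pass (log2 fold change 0.36 ± 0.31, adjusted p = 0.313).

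Among the Gs-coupled β receptors, *Adrb1* was counted 115 and 103 times in f/f and 230 and 256 times in cKO. The log2 fold change was 1.06 ± 0.17 (adjusted p = 6.73e-05), with the groups apart. *Adrb3*, best known from fat, had 5 and 4 counts in f/f and 17 and 28 in cKO (log2 fold change 2.20 ± 0.53, adjusted p = 0.00202). It missed the threshold without Ezh2 cKO replicate 2 (1.79, adjusted p = 0.0685), and 24.9% of its exon bases lie opposite a noncoding gene with 9 counts in all. Of the Gi/o-coupled α2 receptors a single gene passed. *Adra2a*, the target of clonidine and guanfacine, was counted 400 and 326 times in f/f and 637 and 597 times in cKO (log2 fold change 0.68 ± 0.12, adjusted p = 0.00015). *Adra2c* had 270 and 201 counts in f/f and 253 and 289 in cKO, and its groups overlapped after scaling (log2 fold change 0.12 ± 0.16, adjusted p = 0.532). *Adra2b* had 7 to 18 counts in every library and did not pass (-0.57 ± 0.57, adjusted p = 0.39).

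All 3 histamine receptor genes were higher in Ezh2 cKO. *Hrh1*, the Gq-coupled receptor blocked by sedating antihistamines, was counted 20 and 27 times in f/f and 174 and 202 times in cKO. The libraries separated by group, with a log2 fold change of 2.90 ± 0.25 (adjusted p = 1.75e-07). *Hrh2*, the Gs-coupled receptor, was counted 33 and 24 times in f/f and 101 and 92 times in cKO (log2 fold change 1.67 ± 0.26, adjusted p = 6.05e-05). *Hrh3*, the Gi/o-coupled autoreceptor of histamine neurons, was counted 262 and 224 times in f/f and 469 and 379 times in cKO (log2 fold change 0.71 ± 0.14, adjusted p = 0.000527). By mean FPKM it was the highest of the family, at 4.56 in f/f and 7.91 in cKO. Its share of the summed histamine receptor FPKM was 89.2% and 87.6% in f/f and 72.7% and 66.4% in cKO.

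The enzymes and transporters that handle these transmitters were followed in a list of 25 genes. Of these, 13 were higher in Ezh2 cKO, 3 were lower, 6 passed neither way and 3 were not tested, with a median log2 fold change of 1.20 over the 22 tested. That is 52% and 12% of the 25 genes, untested ones included, beside 34.7% and 33.6% of all tested genes. Enzymes of breakdown were among the higher genes. *Hnmt*, which inactivates histamine, was counted 42 and 47 times in f/f and 275 and 315 times in cKO (2.63 ± 0.20, adjusted p = 4.48e-08). *Maoa*, which oxidises serotonin and noradrenaline, was counted 386 and 352 times in f/f and 935 and 896 times in cKO (1.22 ± 0.10, adjusted p = 1.56e-07). The genes that were lower were transporters. *Slc29a4*, the low-affinity plasma membrane monoamine transporter, was counted 6143 and 5499 times in f/f and 2638 and 2587 times in cKO (-1.25 ± 0.08, adjusted p = 1.78e-08). *Slc18a1*, a vesicular monoamine transporter, had 26 and 28 counts in f/f and 3 and 0 in cKO, a ratio of f/f over cKO of 19.2 with an exact 95% interval of 6.23 to 95.9 for counting error only. *Slc6a2*, the noradrenaline transporter, had 24 and 21 counts in f/f and 0 and 3 in cKO, a ratio of 16.0 (5.13 to 80.4). The summed level of the list was 476 and 498 CPM in f/f and 488 and 482 CPM in cKO. No listed enzyme or transporter was at 0 in every library.

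**Figure D5:**
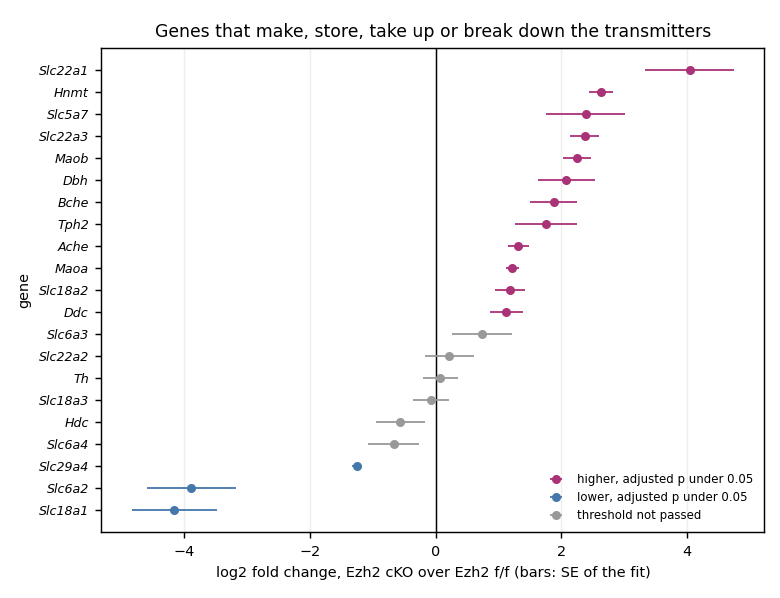
Fitted log2 fold change (x axis, Ezh2 cKO over Ezh2 f/f) of 21 tested genes that make, store, take up or break down the transmitters (y axis), with bars for the SE of the fit and colours for the call at an adjusted p under 0.05. *Hnmt* and *Maoa* lie to the right of 0, and *Slc29a4*, *Slc6a2* and *Slc18a1* form the lower end.

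Genes that act below the receptors were followed in a list of 44. Of these, 26 were higher, 10 were lower, 7 passed neither way and 1 was not tested, and the median log2 fold change was 0.49 over the 43 tested. The shares of the 44 genes, with the untested gene in the base, were 59.1% higher and 22.7% lower, beside the same 34.7% and 33.6%. *Rgs4*, which shortens Gi/o and Gq signals, was counted 936 and 901 times in f/f and 3937 and 3863 times in cKO (log2 fold change 1.99 ± 0.09, adjusted p = 5.79e-10). *Adcy2*, an adenylyl cyclase, was counted 550 and 507 times in f/f and 1760 and 1748 times in cKO (1.64 ± 0.09, adjusted p = 3.73e-09). *Rgs9*, whose striatal form curbs D2 receptor signals, was counted 246 and 279 times in f/f and 1126 and 1233 times in cKO (2.07 ± 0.12, adjusted p = 4.33e-09). In the other direction, *Itpr3*, a calcium release channel gated by inositol trisphosphate, was counted 622 and 499 times in f/f and 91 and 79 times in cKO (-2.81 ± 0.15, adjusted p = 2.60e-09). The receptor kinase gene *Grk2* and the protein kinase A subunit gene *Prkar2a* were lower by small amounts, -0.51 ± 0.08 and -0.50 ± 0.09 on the log2 scale. The G protein α subunits themselves were mixed. *Gnao1* (0.83), *Gnai1* (0.63) and *Gnal* (1.12), the olfactory and striatal partner of D1 receptors, were higher, while *Gnaq* (-0.26), *Gna11* (-0.37), *Gnas* (-0.34) and *Gnai3* (-0.58) were lower. The α subunit genes were named after their values were seen.

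A list of 14 chaperones, Ly6 proteins and anchors of nicotinic receptors gave 5 higher, 3 lower, 4 that passed neither way and 2 not tested, with a median log2 fold change of 0.03 over the 12 tested. Of the 14 genes, untested ones included, 35.7% were higher and 21.4% lower, beside 34.7% and 33.6% of all tested genes. *Lynx1*, a membrane-anchored Ly6 protein that dampens nicotinic receptors, was counted 309 and 418 times in f/f and 5571 and 4778 times in cKO (log2 fold change 3.73 ± 0.15, adjusted p = 2.16e-10). *Lypd1* and *Ly6e*, of the same protein family, were higher by 1.79 ± 0.13 and 1.24 ± 0.10 on the log2 scale. The lower genes were *Agrn* (-0.42 ± 0.09), the organiser of the neuromuscular synapse, *Ric3* (-0.47 ± 0.10), a chaperone of α7 assembly, and *Ly6h* (-0.36 ± 0.08), which limits α7 at the surface.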

How the data were processed

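RNA was sequenced from cortical isolates in 4 libraries, 2 per genotype. The authors deposited raw counts of reads per gene, without normalization, and FPKM values scaled to gene length and library size, for 29224 genes with at least 1 count in some library. The submitters' processing notes name Bowtie2 2.2.3, TopHat2 2.0.12, HTSeq 0.6.0 and build mm9; the annotation and use of strand are not given in the sources used here. Gene positions in the tables differ from GRCm38 (581 of 28799 identifiers have the same position), so only RefSeq promoters carry coordinates here. Columns holding the authors' own comparison (mean, fold change and p-values) were not used, and 0 sample columns were left out. No row lacked a gene.

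The receptor genes, their grouping and the other gene lists were chosen with earlier results of these data known. The filterByExpr filter of edgeR kept 16793 genes for testing. Library sizes were scaled by TMM (factors 0.976, 0.967, 1.02 and 1.04), also for CPM. The quasi-likelihood test of edgeR 4.0.16 in R 4.3.3 compared the groups over all tested genes with Benjamini-Hochberg adjustment (common biological coefficient of variation 0.0953), and a gene was called at an adjusted p under 0.05. A positive log2 fold change means a higher level in Ezh2 cKO. A gene counted as detected in a group with more than 3 counts in each library. Library totals were 17522152 and 16273308 counts for Ezh2 f/f and 17330230 and 16678309 for Ezh2 cKO, and intervals and floors cover counting error only. Every receptor gene could be named, except that 1 receptor gene and 1 pathway gene are counted in the totals but not reported here; per-library values are given for those called with at least a 2-fold change, those at the floor in a single group, and family members beside them. Of each pathway list the 3 called genes with the smallest p in each direction are named.

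Alternatives were DESeq2 1.42.0 (Wald test, and its size factors in edgeR), no count filter, a mean of at least 50 counts, limma 3.58.1 on log2(FPKM + 1) and log2(FPKM + 0.1) (genes with an FPKM of 1 or more in 2 libraries), a block for the replicate number, the omission of single libraries, and other detection limits. The fits were tested on simulated data. Tables were made with Python 3.11.15, pandas 2.3.3 and scipy 1.17.1.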

Additional observations from a re-analysis of the deposited data

How the results depend on the processing

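The counts of 23 receptor genes higher and 3 lower varied with the fit. They were 20 and 3 with DESeq2's Wald test and 23 and 3 with its size factors or without a count filter. With a mean of at least 50 counts they were 19 and 2 (26 genes fitted). With limma at either pseudocount they were 18 and 2 (24 fitted). Of the called genes, 5 were not fitted in the former and 6 in the latter. The counts with a library left out are given with the main result. No called gene changed direction in any of these fits. *Ezh2* lay between -1.29 and -0.72. With the replicate number as a block, 24 were higher and 3 lower, *Chrna4* being added (0.31, adjusted p = 0.0163), and *Ezh2* was at -1.11. The pairing rests on numbers alone, and the labels tie no numbers. Same-numbered libraries deviated together with r = 0.13 across genes in only 2 pairs. The block was therefore fitted as an alternative only and was not used in the main test.

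Among genes that did not pass, the sign of the log2 value turned with a library left out for *Adra2b* (-1.14 to 0.31), *Adra2c* (-0.043 to 0.28), *Chrna2* (-0.28 to 0.21), *Chrna3* (-0.18 to 0.17), *Chrna5* (-0.0039 to 0.89), *Chrna7* (-0.46 to 0.96), *Htr5b* (-0.077 to 0.058) and *Htr6* (-0.16 to 0.0071). It also turned with a mean of at least 50 counts (*Chrna3* 0.029, *Htr5b* 0.024), under the block (*Chrna3* 3.91e-06) and with limma at a pseudocount of 1 (*Htr5b* 0.045, *Htr6* 0.0042) or 0.1 (*Htr5b* 0.069, *Htr6* 0.0049). The cause was not tested. Detection gave 41 (Ezh2 f/f) and 43 (Ezh2 cKO) genes, 45 and 46 at 1 count or more, 32 and 37 above 10 counts, 39 and 42 at an FPKM of at least 0.1, and 41 to 42 and 43 to 46 with a library left out. Depth limits the genes of few counts, such as *Htr1f*, *Htr4* and *Adrb3*.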
